A study of Mus musculus with 9 samples.

Results

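Usp47, Dkk3, Mical2, Parva, Tead1, Btbd10, Far1, Spon1, Rras2 and Copb1 are neighbours of Arntl, the gene of the clock factor BMAL1, on mouse chromosome 7. In the gene order 5 of them lie on each side of Arntl. Every probe set that the platform annotation pairs with exactly one gene, that gene being one of the 10, was taken. This gave 24 of 45037 non-control probe sets and 10 of 18193 genes. No probe set (0) was shared between one of the 10 and another gene. The tissue was the aorta of male mice at ZT14 (14 h after lights would have come on), and its RNA was put on Affymetrix mouse expression arrays, with 1 array for each sample. There were 4 arrays labelled BMAL-/- (F02, F03, F05 and F08) and 5 labelled BMAL+/+ (F01, F04, F07, F09 and F10), given as biological replicates. Mice of both genotypes were only partially backcrossed onto C57Bl/6J, and all had been kept in cycles of 12 h light for at least 2 weeks and then in darkness for at least 30 h. The founder strain, the number of backcross generations, the ages and whether animals of different genotype were littermates were not stated in the labels. F01 has a source name of BMAL-/- against a title and strain of BMAL+/+, and was kept in BMAL+/+.

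A gene disrupted in embryonic stem cells and moved to another strain by backcrossing brings with it a stretch of founder chromosome. Alleles on that stretch are inherited together with the disrupted gene, so genes beside it can differ in transcript level, or in how well a probe binds, between mutant and control animals without being regulated by the missing protein. A transcript that is instead under the control of the clock would go with the state of the clock genes of each animal. Whether the 10 neighbours go with the labels or with the clock genes was the question. The 10 genes have varied roles. Dkk3 and Spon1 encode secreted proteins, Mical2 and Parva act on actin and on cell adhesion, and Tead1 is a transcription factor that works with YAP and TAZ. Rras2, Usp47 and Btbd10 act in signalling, Far1 in ether lipid synthesis and Copb1 in vesicle transport.

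In these arrays the labels and the clock genes part at 2 animals, and which genotype those animals carried was not tested. If their labels were exchanged, genotype and clock genes coincide on all 9 arrays, and founder chromosome and clock control cannot be told apart. The place of these 2 arrays is therefore given below relative to the labels only. Deposited values are log2 expression. Their array medians lay between 3.13 and 3.24, and a dense floor lies below that. The targeted gene came first. Arntl read 5.87, 6.22 and 6.05 on F02, F03 and F08 and 2.77 on F05, all labelled BMAL-/-, against 2.76, 2.79, 2.82 and 2.74 on F01, F07, F09 and F10 and 6.67 on F04, all labelled BMAL+/+. Its transcript was therefore higher on most arrays labelled BMAL-/-, and F04 and F05 stood with the other label. The labels do not say which stretch of Arntl was removed, so this probe set may or may not lie within it. F04 and F05 also stood with the other label at Npas2, Nr1d2, Dbp and Per3. Nr1d2, the gene of the clock repressor REV-ERB beta, read 5.08, 5.89 and 5.48 on F02, F03 and F08 and 11.21 on F05 in BMAL-/-, against 11.69, 11.27, 10.39 and 11.09 on F01, F07, F09 and F10 and 5.81 on F04 in BMAL+/+. Markers of smooth muscle, endothelium, fibroblasts and macrophages were present in both groups, as for an aorta, and those of skeletal muscle varied most. The log2 of the summed level of 7 skeletal muscle markers was lowest at 11.27 on F05 in BMAL-/- and at 7.93 on F01 in BMAL+/+, and highest at 15.002 on F08 in BMAL-/- and at 14.62 on F07 in BMAL+/+, and 0 of the 7 passed the test under either grouping. Cardiac muscle markers, 5 in number, varied as well. Their sum ran from 9.95 on F08 to 13.58 on F03 in BMAL-/-, and from 9.17 on F04 to 13.07 on F07 in BMAL+/+. Of these 5 markers 0 passed under either grouping. All directions below rest on the labels, with the 9 arrays as labelled and again with the 7 arrays other than F04 and F05, which were left out for their clock genes. The arrays were not regrouped by clock genes. Leaving out arrays for their clock genes by itself widens the difference of any gene that varies with those genes, so the values for the 7 arrays are descriptions beside those for the 9. In whole tissue, fewer cells of a type and less RNA per cell cannot be told apart.

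Promoters are shown for Mical2 and Rras2. The first was chosen because it held an E-box, defined below, and the second because it was the gene with the highest difference. Sequences are from RefSeq, GRCm38.p6, 250 bases before to 50 after the annotated start, and 6 of the 10 neighbours matched (Usp47, Mical2, Btbd10, Far1, Rras2 and Copb1). Capitals mark the E-box CACGTG, the element that BMAL1 with its partner CLOCK binds. AGGTCA, the core of the element bound by REV-ERB and ROR receptors, and the D-boxes TTATGTAA and TTACGTAA were also searched for, on both strands.
Mical2, chr7:112225586-112225885, plus strand: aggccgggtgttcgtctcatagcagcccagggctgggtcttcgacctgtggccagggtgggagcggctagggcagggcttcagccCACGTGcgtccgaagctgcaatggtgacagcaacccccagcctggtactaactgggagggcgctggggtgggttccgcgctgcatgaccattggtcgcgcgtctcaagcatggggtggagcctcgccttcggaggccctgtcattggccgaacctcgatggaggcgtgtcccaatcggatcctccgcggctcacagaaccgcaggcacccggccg
Rras2, chr7:114117732-114118031, minus strand: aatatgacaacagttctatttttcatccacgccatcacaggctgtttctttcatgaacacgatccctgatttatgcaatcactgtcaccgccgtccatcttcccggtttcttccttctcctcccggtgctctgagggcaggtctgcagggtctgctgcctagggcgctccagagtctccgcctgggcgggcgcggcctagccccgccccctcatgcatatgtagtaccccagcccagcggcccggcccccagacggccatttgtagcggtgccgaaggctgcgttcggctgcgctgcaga
Of the 6 promoters only that of Mical2 held CACGTG (1 match, whose first base lay 165 bases before the start), and none of the 6 held AGGTCA or a D-box. CACGTG is in 7.15% of all 32851 promoters of this length, AGGTCA in 16.3% and a D-box in 1.06%. A match is a run of letters and was not tested as a binding site.

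With the 9 arrays as labelled, none of the 24 probe sets passed the test. In limma, 0 of 24 had an adjusted p under 0.05, as did 0% of all 45037 probe sets, and the F-test that the design text names also called 0. Before adjustment 3 of 24 (12.5%) had a limma p under 0.05, against 8.67% of all probe sets. The 1 that was lower in BMAL-/- was Mical2 (1455685_at), against 0.75% of all probe sets lower at that level. The 2 that were higher belonged to Tead1 (1423434_at) and Spon1 (1442613_at), by 0.08 each at levels below 3, near the floor, against 7.92% of all probe sets higher. The median difference over the 24 was -0.16 (BMAL-/- minus BMAL+/+, log2), and 16 were below 0, against a median of 0.03 and 31.3% below 0 over all probe sets. Above the median brightness 14 of 19 were below 0 with a median of -0.27, against 49.97% of all probe sets there and a median of 0.000225. Of the 19 neighbour probe sets above the median brightness 1 had an unadjusted p under 0.05 in limma, or 5.26%, against 2.95% of all probe sets there (1.43% lower and 1.52% higher).

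**Figure D1:**
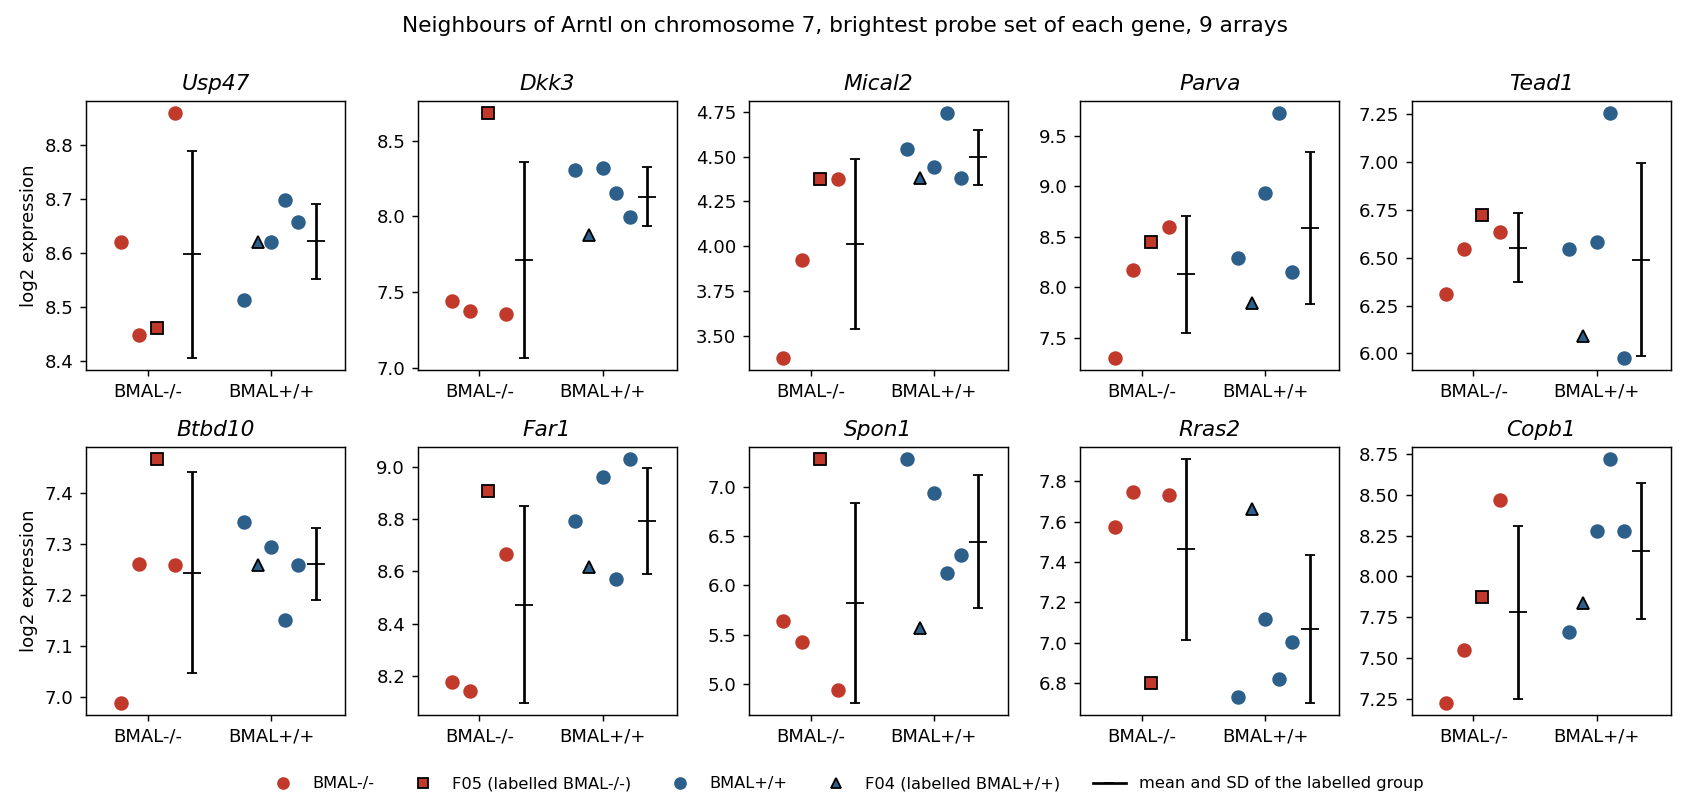
Log2 expression of each of the 10 neighbours at its brightest probe set, 1 panel per gene with its own axis, BMAL-/- arrays left and BMAL+/+ arrays right. Each point is an array, squares are F05 and triangles are F04, and bars give the mean and SD of the group as labelled. At Spon1 and Rras2 the triangle lies with the BMAL-/- arrays and the square with the BMAL+/+ arrays. As labelled, the groups overlap in every panel except that of Mical2.

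Without F04 and F05 there were still 0 of 24 past the threshold in limma, against 0.00888% of all probe sets. The count with a limma p under 0.05 before adjustment was 9 of 24 (37.5%), against 23.7% of all probe sets. It held 6 lower in BMAL-/-, against 3.7% of all probe sets, and 3 higher, against 20%. The 6 lower were both probe sets of Dkk3 and 1 of Mical2, 2 of Far1 and 1 of Spon1, and the 3 higher were 1 each of Rras2, Tead1 and Spon1. Above the median brightness it was 7 of 19 (36.8%), against 14.3% of all probe sets there, with 6 lower, against 7.23%, and 1 higher, against 7.07%. The median difference of the 10 genes at their brightest probe set was -0.50, with 8 lower and 2 higher. Over all genes it was 0.04 and 31.9% were lower, but only 11180 of 18193 were above the median brightness. All 10 neighbours were above it. There 14 of 19 neighbour probe sets were lower (median -0.50), against 49.1% of all probe sets (median 0.007). All of the 9 probe sets with a limma p under 0.05 before adjustment had the same adjusted p of 0.208. That lack of calls depended on the arrays' weights, since 9 of 24 passed with array weights, where 34.3% of all probe sets did, and on F08, without which 7 of 24 passed beside 36.5% of all.

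**Figure D2:**
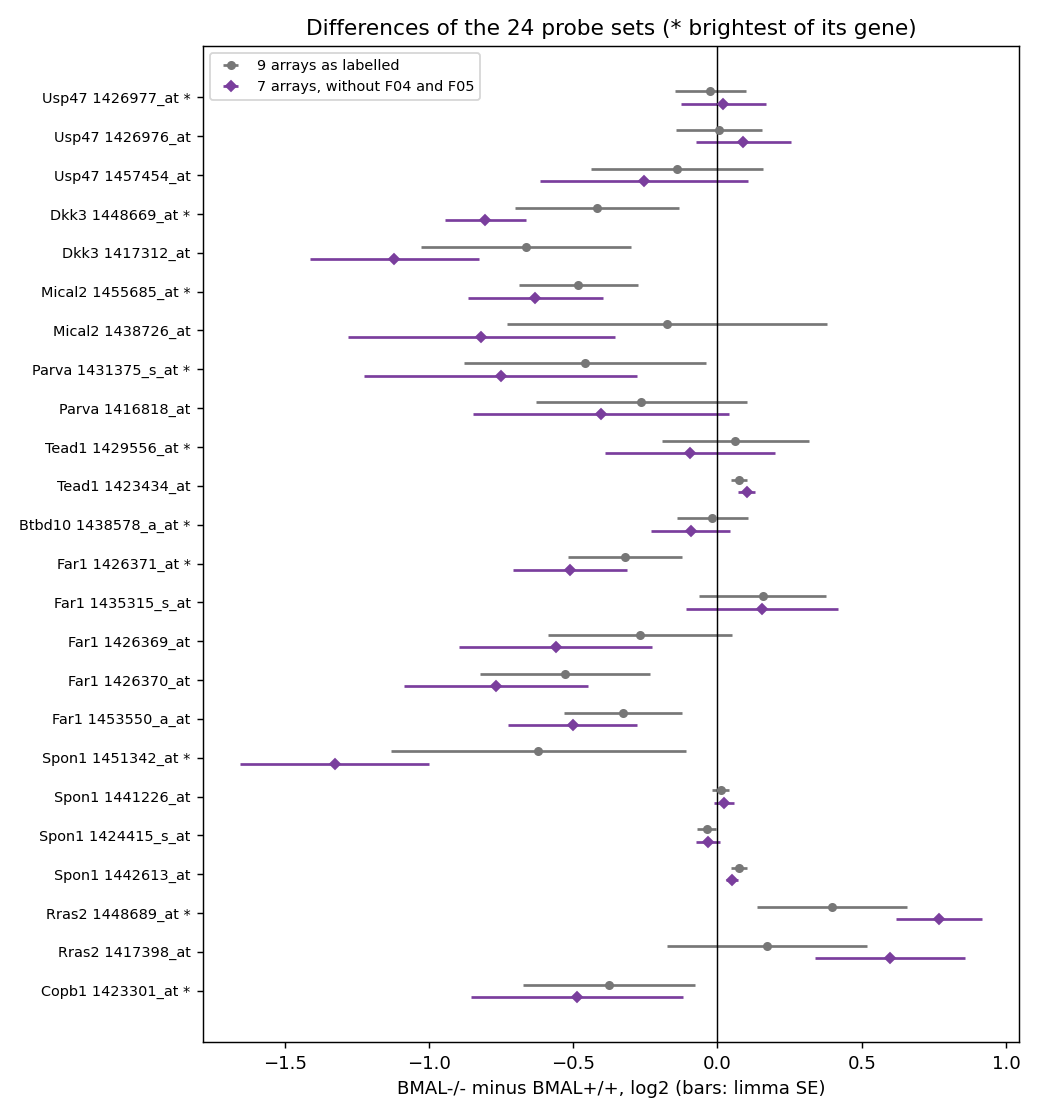
Difference of each of the 24 probe sets, BMAL-/- minus BMAL+/+ in log2 units, with bars for the SE from limma. Circles are the 9 arrays as labelled and diamonds the 7 arrays without F04 and F05. At Dkk3, Spon1 (1451342_at) and Rras2 (1448689_at) the diamonds lie further from 0 than the circles, as with a difference of -1.33 against -0.62 for Spon1. The same holds at the brightest probe sets of Mical2, Parva, Far1, Copb1 and Btbd10, and with a change of sign at that of Tead1, but not at that of Usp47.

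Spon1, which encodes F-spondin, a secreted protein of the extracellular matrix, had the largest difference in the 7 arrays. At its brightest probe set (1451342_at) it read 5.64, 5.42 and 4.94 on F02, F03 and F08 and 7.28 on F05, labelled BMAL-/-, against 7.28, 6.93, 6.13 and 6.31 on F01, F07, F09 and F10 and 5.57 on F04, labelled BMAL+/+. F04 lay between 2 of the BMAL-/- arrays, and F05 was as high as the highest BMAL+/+ array. As labelled the groups overlapped. BMAL-/- arrays averaged 5.82 ± 1.02 (SD, n = 4) against 6.44 ± 0.67 (SD, n = 5) for BMAL+/+ arrays, and the difference was -0.62 ± 0.51 (SE) with an adjusted p of 0.491 in limma and an exact permutation p of 0.302. Without F04 and F05 they averaged 5.33 ± 0.36 (SD, n = 3) for BMAL-/- against 6.66 ± 0.54 (SD, n = 4) for BMAL+/+, and the difference was -1.33 ± 0.33 (SE), or 2.51-fold, with an adjusted p of 0.208 in limma. The exact permutation p there was 0.0286, the smallest that 7 arrays allow. Only groups that do not overlap can reach it. In the 7 arrays 17.5% of all probe sets did not overlap, and 12.6% of those above the median brightness. The other 3 probe sets of Spon1 lay between 2.33 and 3.18 on every array, near the floor, and did not share this pattern. Of these, 1442613_at read 2.42, 2.40, 2.35 and 2.51 on F02, F03, F08 and F05 in BMAL-/-, against 2.33, 2.35, 2.33, 2.35 and 2.36 on F01, F07, F09, F10 and F04 in BMAL+/+.

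Dkk3, a secreted member of the Dickkopf family, had a similar arrangement on both of its probe sets. On the brighter (1448669_at) it read 7.44, 7.37 and 7.36 on F02, F03 and F08 and 8.68 on F05 in BMAL-/-, against 8.31, 8.32, 8.15 and 7.99 on F01, F07, F09 and F10 and 7.87 on F04 in BMAL+/+. F05 was the highest of the 9 arrays, and F04 lay below the other BMAL+/+ arrays but nearer to them than to F02, F03 and F08. On the other (1417312_at) it read 6.87, 6.85, 7.88 and 8.44 on F02, F03, F08 and F05 in BMAL-/-, against 8.43, 8.55, 8.04, 8.26 and 7.59 on F01, F07, F09, F10 and F04 in BMAL+/+. There F04 read below F08, a BMAL-/- array. As labelled the differences were -0.42 ± 0.28 and -0.66 ± 0.36 (SE), with adjusted p of 0.419 and 0.37 in limma. Without F04 and F05 they were -0.80 ± 0.14 and -1.12 ± 0.29 (SE), with an adjusted p of 0.208 each in limma and an exact permutation p of 0.0286 each. That permutation p was again the smallest that 7 arrays allow.

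Rras2, a small GTPase of the RAS family also known as TC21, went the other way. Its brighter probe set (1448689_at) read 7.57, 7.75 and 7.73 on F02, F03 and F08 and 6.80 on F05 in BMAL-/-, against 6.73, 7.12, 6.82 and 7.00 on F01, F07, F09 and F10 and 7.66 on F04 in BMAL+/+. F04 lay between 2 of the BMAL-/- arrays and F05 within the BMAL+/+ range. As labelled BMAL-/- arrays averaged 7.46 ± 0.45 (SD, n = 4) against 7.07 ± 0.37 (SD, n = 5) for BMAL+/+ arrays, and the difference was 0.40 ± 0.26 (SE) with an adjusted p of 0.405 in limma. Without F04 and F05 they averaged 7.68 ± 0.10 (SD, n = 3) for BMAL-/- against 6.92 ± 0.17 (SD, n = 4) for BMAL+/+. The difference was 0.77 ± 0.15 (SE) with an adjusted p of 0.208 in limma and an exact permutation p of 0.0286, here too the smallest possible. The second probe set (1417398_at) read 6.46, 7.11, 7.33 and 5.58 on F02, F03, F08 and F05 in BMAL-/-, against 5.98, 6.39, 6.64, 6.46 and 6.77 on F01, F07, F09, F10 and F04 in BMAL+/+. Its lowest array was F05, but F02 lay inside the BMAL+/+ range. The difference without F04 and F05 was 0.60 ± 0.26 (SE), with an exact permutation p of 0.114. Spon1 and Rras2 are next to each other in the gene order and had opposite signs, with a Pearson r of -0.88 over the 9 arrays between their brightest probe sets. Dkk3, on the other side of Arntl, had r of 0.92 with Spon1 and -0.88 with Rras2. These coefficients describe 9 arrays that share 1 normalization.

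Markers of smooth muscle were lowest on F02 and F03 but not on F08. The log2 of the summed level of 8 smooth muscle markers was 14.77 and 14.60 on F02 and F03, 15.56 on F08 and 15.63 on F05 in BMAL-/-, against 15.55, 15.86, 15.52 and 15.60 on F01, F07, F09 and F10 and 15.002 on F04 in BMAL+/+. All 8 had a difference below 0 under both groupings and none passed. The summed level of 8 fibroblast markers, of which 6 had a difference below 0, ran from 13.44 to 14.74 in BMAL-/-, highest on F08, and from 14.14 to 14.90 in BMAL+/+ on the same scale. Macrophage markers, 8 of 8 with a difference below 0 under both groupings and 0 past the threshold, were low on F03 and F08 and high on F05. Their summed level was 11.70, 10.76 and 11.06 on F02, F03 and F08 and 12.22 on F05 in BMAL-/-, against 11.86, 12.11, 11.67 and 12.56 on F01, F07, F09 and F10 and 11.50 on F04 in BMAL+/+. F02 lay just inside the range of the BMAL+/+ arrays, F04 was the lowest of them and F05 was higher than all but F10. Adipocyte markers, 5 of 5 measured with a difference below 0, summed to 15.45 to 16.20 in BMAL-/- and 15.67 to 16.56 in BMAL+/+. No marker of these lists was under the median level on every array (0). The part of smooth muscle, fibroblasts, macrophages and adipocytes in the values of Dkk3, Spon1 and Rras2 was not tested.

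Mical2, a monooxygenase that oxidises actin and so promotes loss of filaments, was the only one of the 24 probe sets whose groups did not overlap on all 9 arrays. Its brightest probe set (1455685_at) read 3.38, 3.92, 4.37 and 4.37 on F02, F03, F08 and F05 in BMAL-/-, against 4.54, 4.44, 4.74, 4.38 and 4.38 on F01, F07, F09, F10 and F04 in BMAL+/+. The lowest BMAL+/+ array and the highest BMAL-/- array were only 0.0047 apart on the log2 scale, and after quantile normalization or centring the groups overlapped, with a gap of -0.117 or -0.0314. Of all probe sets 0.773% did not overlap, and above the median brightness 0.662%. The difference as labelled was -0.48 ± 0.21 (SE), with an unadjusted limma p of 0.0446, an adjusted p of 0.37 and an exact permutation p of 0.00794, the smallest that 9 arrays allow. F02 alone carried much of it. Without F02 the difference was -0.27 with the other 8 arrays and -0.38 with the other 6 of the 7, against -0.63 with all 7. F02 read 3.38, close to its array median of 3.24 and so near the floor. F02 and F03 were also the arrays with the lowest smooth muscle sum, and its part in the result was not tested. The second probe set (1438726_at) had another pattern, at 5.57 on F05 in BMAL-/- and 5.61 on F01 in BMAL+/+, with the other arrays from 3.37 to 4.32.

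Parva, an adhesion protein of the complex with integrin-linked kinase, did not separate the groups. Its brightest probe set read 7.30, 8.17, 8.59 and 8.45 on F02, F03, F08 and F05 in BMAL-/-, against 8.29, 8.93, 9.72, 8.15 and 7.84 on F01, F07, F09, F10 and F04 in BMAL+/+. The difference was -0.46 ± 0.42 (SE) as labelled and -0.75 ± 0.47 (SE) without F04 and F05, with adjusted p of 0.535 and 0.304 in limma. Its second probe set spanned 2.43 to 4.05. Tead1, the TEA domain factor that acts with YAP and TAZ and on muscle promoters, read 6.31, 6.54, 6.63 and 6.72 on F02, F03, F08 and F05 in BMAL-/- at its brightest probe set, against 6.54, 6.58, 7.25, 5.98 and 6.09 on F01, F07, F09, F10 and F04 in BMAL+/+. The BMAL-/- arrays lay inside the BMAL+/+ range, and the difference was 0.06 ± 0.25 (SE) as labelled and -0.09 ± 0.30 (SE) without F04 and F05. The dim probe set of Tead1 (1423434_at) read 2.83, 2.87, 2.80 and 2.76 on F02, F03, F08 and F05 in BMAL-/-, against 2.76, 2.74, 2.69, 2.73 and 2.77 on F01, F07, F09, F10 and F04 in BMAL+/+.

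Btbd10 is the first measured gene after Arntl, and its arrays did not separate by label. Btbd10, a BTB domain protein linked to Akt signalling, read 6.99, 7.26, 7.26 and 7.47 on F02, F03, F08 and F05 in BMAL-/-, against 7.34, 7.29, 7.15, 7.26 and 7.26 on F01, F07, F09, F10 and F04 in BMAL+/+. The difference was -0.02 ± 0.12 (SE) as labelled and -0.09 ± 0.14 (SE) without F04 and F05. For 3 of these arrays the deposited values were equal to 6 decimals. Such ties occurred at 8 of the 24 probe sets and at 25.4% of all probe sets, and what they do to the spread that the test sees was not measured. Usp47, a deubiquitinase known for its action on DNA repair polymerase beta, spanned 8.45 to 8.86 in BMAL-/- and 8.51 to 8.70 in BMAL+/+ at its brightest probe set, a difference of -0.02 ± 0.12 (SE) as labelled and 0.02 ± 0.15 (SE) without F04 and F05. Its other probe sets had differences of 0.004 and -0.14 as labelled.

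Far1, the peroxisomal reductase that makes the fatty alcohols of ether lipids, read 8.18, 8.14, 8.67 and 8.91 on F02, F03, F08 and F05 in BMAL-/- at its brightest probe set (1426371_at), against 8.79, 8.96, 8.57, 9.03 and 8.61 on F01, F07, F09, F10 and F04 in BMAL+/+. F02 and F03 were below every other array, and F08 was within the BMAL+/+ range. The difference was -0.32 ± 0.20 (SE) as labelled and -0.51 ± 0.20 (SE) without F04 and F05, with adjusted p of 0.387 and 0.208 in limma. Its 1426370_at read 4.65, 3.94, 4.99 and 4.93 on F02, F03, F08 and F05 in BMAL-/-, against 4.93, 5.53, 4.95, 5.76 and 4.61 on F01, F07, F09, F10 and F04 in BMAL+/+, with F03 lowest. Of the other 4 probe sets 3 had differences of the same sign under both groupings, and 1435315_s_at had the opposite sign, 0.16 ± 0.22 (SE) as labelled. Copb1, the beta subunit of the COPI coat of Golgi vesicles, read 7.22, 7.55, 8.47 and 7.87 on F02, F03, F08 and F05 in BMAL-/-, against 7.66, 8.28, 8.72, 8.28 and 7.84 on F01, F07, F09, F10 and F04 in BMAL+/+, with a difference of -0.38 ± 0.30 (SE) as labelled and an adjusted p of 0.474 in limma.

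**Figure D3:**
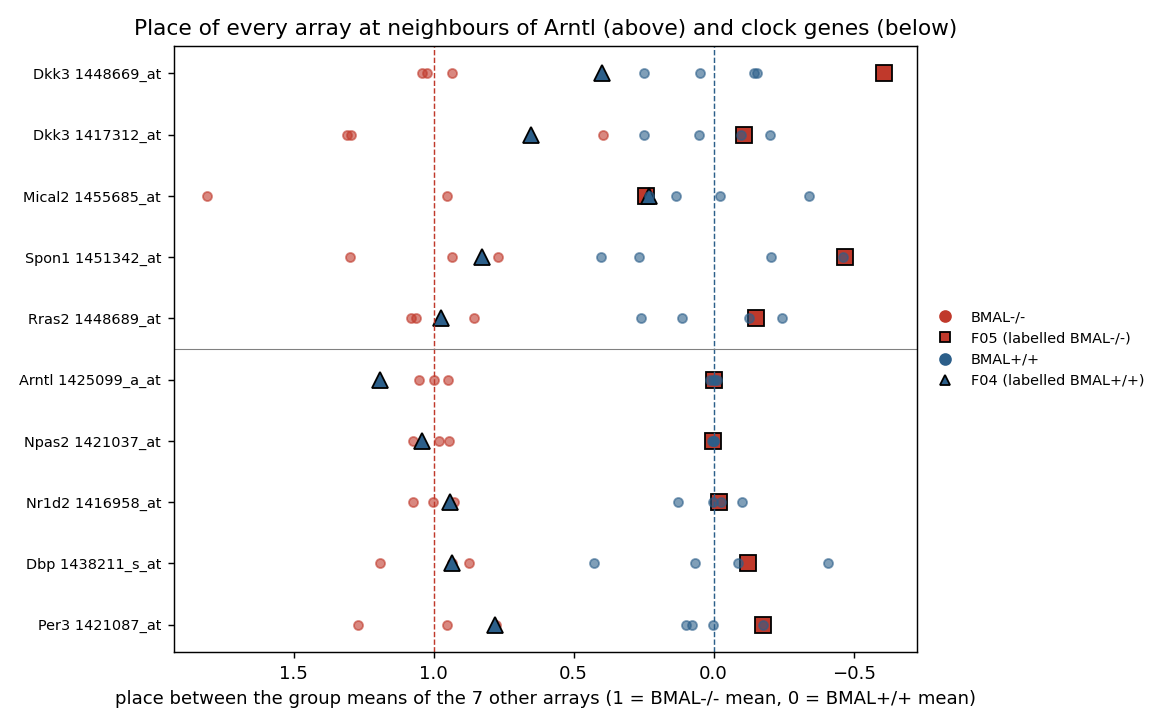
Place of each array between the group means of the 7 arrays without F04 and F05, where 1 is the BMAL-/- mean and 0 the BMAL+/+ mean, for the 5 neighbour probe sets above the median brightness whose 7 arrays do not overlap, and for 5 clock genes. Triangles are F04 and squares F05. At Rras2 F04 lies at 0.97 and F05 at -0.15, while at Mical2 they lie at 0.23 and 0.24. The 7 arrays that set the scale are those left after F04 and F05 were taken out for their clock genes.

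The place of F04 and F05 was then read at each probe set whose 7 other arrays did not overlap between labels. There were 6 such probe sets among the 24 (25%), against 17.5% of all probe sets. Above the median brightness there were 5 of 19 (26.3%), against 12.6%, with 4 lower in BMAL-/-, against 5.04%, and 1 higher, against 7.56%. At 3 of the 6 (50%) both arrays lay on the side of the other label, namely Spon1 (1451342_at), Dkk3 (1417312_at) and Rras2 (1448689_at), against 20.5% of all such probe sets. Above the median brightness the shares were 3 of 5 (60%) and 46.9%. At 1 (16.7%) both lay on the side of their own label, Mical2, against 2.45% (3.42% above the median brightness). At the remaining 2, the brighter probe set of Dkk3 and the dim one of Tead1, F05 lay with the other label and F04 with its own, against 10.2% (17.6% above the median brightness). The reverse arrangement, F04 alone with the other label, was found at 0 of the 6, against 66.9% (32.1% above the median brightness). With so few probe sets these shares are descriptions. On the scale from the BMAL+/+ mean (0) to the BMAL-/- mean (1) of the 7 arrays, F04 lay at 0.97 for Rras2, 0.83 for Spon1 and 0.65 and 0.40 for the probe sets of Dkk3. F05 lay at -0.15, -0.47, -0.11 and -0.61 in the same order, beyond the BMAL+/+ mean at each. At Mical2 F04 lay at 0.23 and F05 at 0.24, both nearer to the BMAL+/+ mean. The midpoint for Mical2 fell in a gap of only 0.0047, so its call rests on very small differences. The 2 Dkk3 probe sets share a gene and are not independent.

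**Figure D4:**
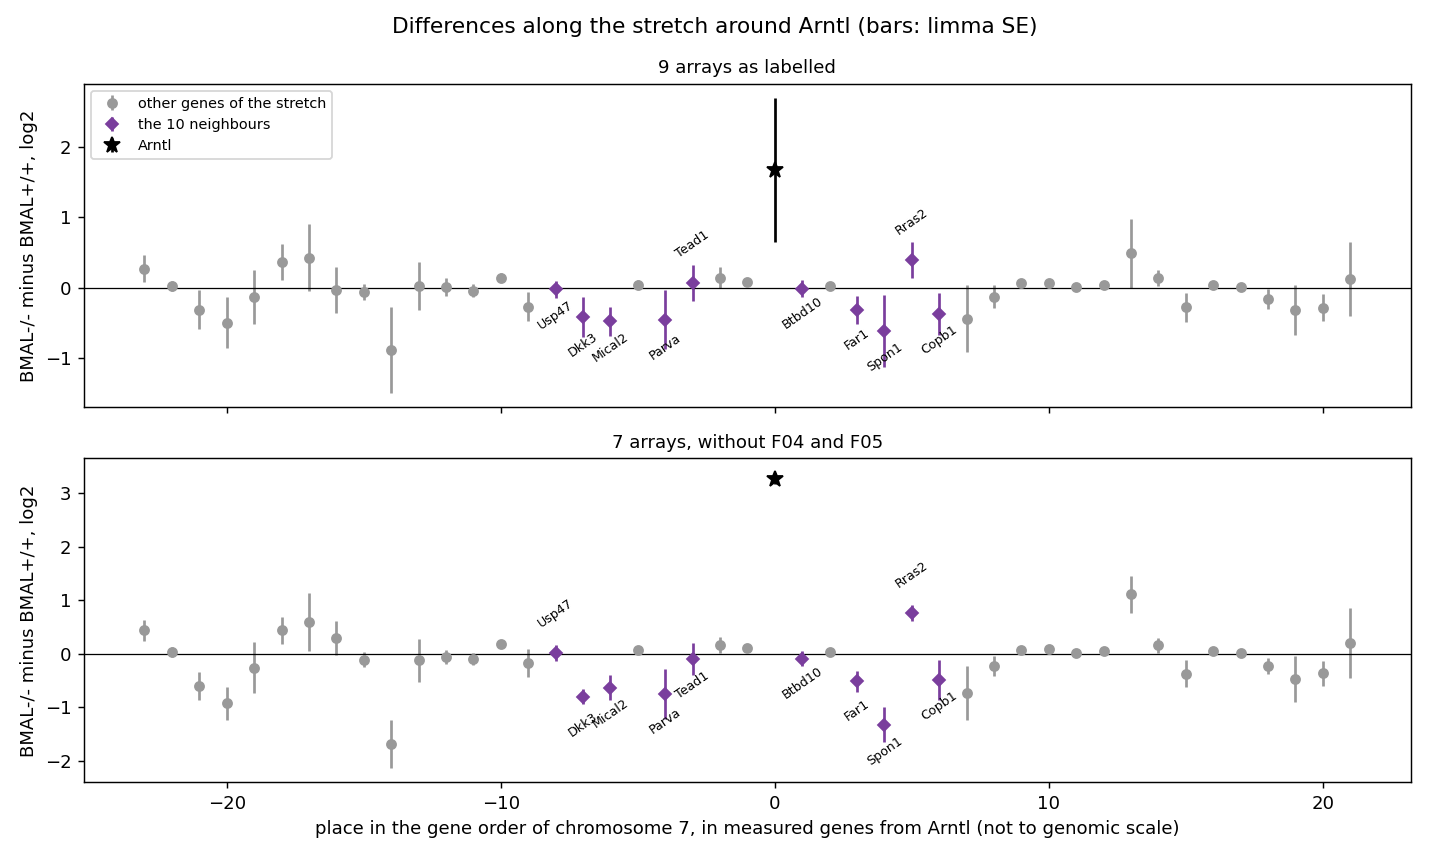
Difference at the brightest probe set of each measured gene, BMAL-/- minus BMAL+/+ in log2 units with bars for the SE from limma, in the gene order around Arntl, with the 9 arrays above and the 7 arrays below. The star is Arntl, diamonds are the 10 neighbours and circles are other genes. The genes next to Arntl lie near 0. Of these, Rassf10 (3.12 to 3.70), 4930543E12Rik (2.80 to 2.98) and Pth (2.33 to 2.39) read near the floor, where sizes are not resolved. Genes with differences of either sign are scattered along the stretch.

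The differences were set beside the place in the gene order, and no measure of size against place was computed. Counted in measured genes to either side of Arntl, Btbd10 at 1 and Tead1 at 3 had differences of -0.09 and -0.09 in the 7 arrays. Far1 at 3 had -0.51, Parva at 4 had -0.75, Spon1 at 4 had -1.33 and Rras2 at 5 had 0.77. Mical2 at 6 had -0.63, Copb1 at 6 had -0.49, Dkk3 at 7 had -0.80 and Usp47 at 8 had 0.02. The wider stretch held 34 other measured genes, 4 between the outermost neighbours (Micalcl, Rassf10, 4930543E12Rik and Pth) and 15 beyond on each side. None of the 34 passed under either grouping. Before adjustment the limma p was under 0.05 for 1 of 34 as labelled, Calcb, and for 8 of 34 (23.5%) without F04 and F05, of which 2 were lower and 6 higher. All genes had 7.25% and 22.3% at that level, and the 1402 other genes of chromosome 7 had 7.56% and 21.5%.

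The genes of the wider stretch with the smallest p lay some way from Arntl or near the floor. Lyve1, a hyaluronan receptor of lymphatic endothelium and of some macrophages, 14 genes before Arntl, read 6.96, 5.40, 6.11 and 7.79 on F02, F03, F08 and F05 in BMAL-/-, against 7.06, 7.87, 8.16, 8.27 and 5.89 on F01, F07, F09, F10 and F04 in BMAL+/+. Its difference was -0.88 ± 0.61 (SE) as labelled and -1.68 ± 0.44 (SE) without F04 and F05. Sox6, a transcription factor 13 genes after Arntl whose difference was 1.11 ± 0.34 (SE) without F04 and F05, read 8.24, 9.17, 8.01 and 7.45 on F02, F03, F08 and F05 in BMAL-/-, against 7.77, 7.54, 7.27, 6.90 and 9.19 on F01, F07, F09, F10 and F04 in BMAL+/+. Wee1, a cell cycle kinase that the clock controls through E-boxes, lay 20 genes before Arntl and had a difference of -0.93 ± 0.32 (SE) without F04 and F05. F04 and F05 both lay on the side of the other label at Lyve1, Sox6 and Wee1, which were 3 of the 6 genes of the stretch (50%) whose 7 arrays did not overlap. Of all genes 17.5% did not overlap, against 17.6% of the stretch, and 27.5% of those had both arrays on the side of the other label. Lyve1, Sox6 and Wee1 were above the median brightness, unlike Calcb and 4930543E12Rik among the 6. Above it that share was 46.9% of all probe sets whose 7 arrays did not overlap. Calcb, 4930543E12Rik, 1700012D14Rik and Insc had the smallest p as labelled, with differences of 0.07, 0.08, 0.14 and 0.01 at levels from 1.73 to 3.47, near the floor.

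The genes most like 3 of the neighbours over the 9 arrays were sought for Spon1, Parva and Copb1, the neighbours with the largest SD at their brightest probe set, among 11179 other genes above the median brightness. All of those named lay on other chromosomes, but only 792 of the genes compared were on chromosome 7, apart from the neighbours and Arntl. For Spon1 they were Lonrf1 (Pearson r = 0.99), Vim (0.98), the intermediate filament protein of mesenchymal cells, and Tsc22d1 (0.97). For Parva they were Lgals12 (0.98), a galectin of adipocytes, Stk39 (0.98) and 1110051M20Rik (0.97). For Copb1 they were Arf4 (0.99), a GTPase that recruits the COPI coat, Naxe (0.97) and Get3 (0.97). With 9 arrays, 0.376%, 0.501% and 1.89% of the genes compared had so high a likeness (r over 0.9) to Spon1, Parva and Copb1, in that order.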

How the data were processed

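Total RNA of 9 aortas was labelled with biotin and hybridised to Affymetrix arrays, per the labels' protocols. The table of 45101 probe sets that the authors deposited is in log2 units. GCRMA and MAS5 appear in the submitters' processing notes without role or version, and the range of the values is that of a log2 summary. The number of arrays limits the precision. Values were used as deposited. The 64 control probe sets were left out, 34945 of the remaining probe sets were paired with 1 gene, 932 with several and 9160 are not listed. RefSeq (GRCm38.p6) gave current symbols by gene identifier. A gene is represented by the probe set with the highest mean. The expression table carries no build, so only the gene order was taken from RefSeq, and coordinates are given for its promoters alone.

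All 45037 probe sets were tested with limma 3.58.1 in R 4.3.3 (lmFit on genotype alone, eBayes with a mean-variance trend), two-sided. Benjamini-Hochberg adjustment ran over the whole table, and 0.05 was the threshold. BMAL+/+ was subtracted from BMAL-/- in every difference. Exact permutation tests, two-sided, were added for single probe sets (smallest p 0.00794 for 9 arrays and 0.0286 for 7). The place of F04 and F05 was read against the midpoint between the nearest arrays of the groups. The neighbours, lists, tests and the choice to leave out F04 and F05 were made with earlier results of these data known.

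Values of every array are given for each gene at its brightest probe set, or their range, and for probe sets with an unadjusted p under 0.05 or no overlap. Of the wider stretch, the 4 genes with the smallest p in each grouping are named. Alternatives were quantile normalization, centring, other variance models, array weights, a filter on dim probe sets, a floor at the 20th percentile, the F-test, F01 in BMAL-/-, averaging the probe sets of a gene, and leaving out arrays. Plots were drawn with matplotlib 3.10.9.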

Additional observations from a re-analysis of the deposited data

Results flagged for a closer look

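In 3 of the 48 groups looked at (24 probe sets in each genotype), 1 array lay far from the others of its label by Dixon's criterion, where chance gives about 1 in 20 groups, or 2.4. F05, labelled BMAL-/-, read 8.68 for Dkk3 (1448669_at), while the other BMAL-/- arrays read 7.36 to 7.44. F05 also read 5.57 for Mical2 (1438726_at), while the other BMAL-/- arrays read 3.37 to 3.70. F09, labelled BMAL+/+, read 5.87 for Usp47 (1457454_at), while the other BMAL+/+ arrays read 6.69 to 6.94.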

How the results depend on the processing

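No paired analysis was possible because the groups share no replicate numbers. With the 9 arrays as labelled, the count of neighbour probe sets past the threshold stayed 0 under every alternative run. The count of 3 at an unadjusted p under 0.05 was 1 after quantile normalization, 1 above the median brightness, 1 with F01 in BMAL-/-, 9 without F04 and F05, and 1 to 8 when 1 array was left out, with 1 without F02, F03 or F09 and 8 without F05. In the 7 arrays, the count of 0 past the threshold was 9 with array weights and 0 to 7 when 1 array was left out, with 7 without F08. The count of 9 at an unadjusted p under 0.05 was 11 with array weights and 5 to 10 when 1 array was left out, with 5 without F03 or F07. The count of 3 probe sets with F04 and F05 both on the side of the other label stayed at 3 under both scalings and the floor and ranged from 3 to 6 when 1 array was left out, with 5 without F02 and 6 without F09. Those settings were added after the data were seen.

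Of 360 values of single genes under an alternative, 328 kept their direction and their side of the threshold, 9 passed it and 23 changed sign. Those that passed were Dkk3, Mical2, Far1 and Rras2 in the 7 arrays with array weights and without F08, and Spon1 with array weights (adjusted p = 0.0385). Sign changes with array weights and 9 arrays were 0.23 for Dkk3, 0.20 for Spon1, -0.10 for Rras2 and 0.14 for Btbd10, and in the 7 arrays -0.081 for Usp47. The remaining ones were at genes near 0. Usp47 with 9 arrays was 0.027 after quantile normalization and 0.021 without F04 and F05, and -0.11 to 0.025 when 1 array was left out. In the 7 arrays it was -0.035 after centring, -0.048 for the mean of its probe sets and -0.087 to 0.12 when 1 was left out. Tead1 with 9 arrays was -0.094 without F04 and F05 and -0.066 to 0.25 when 1 was left out, and in the 7 arrays 0.011 after quantile normalization, 0.0038 for the mean of its probe sets and -0.30 to 0.13 when 1 was left out. Btbd10 with 9 arrays was 0.045 after quantile normalization, 0.023 with F01 in BMAL-/- and -0.092 to 0.068 when 1 was left out. Leaving out 1 of the 9 arrays gave -0.33 (without F08) to -1.11 (without F05) for Spon1, 0.30 to 0.62 (without F05) for Rras2, -0.30 to -0.74 (without F05) for Dkk3, -0.17 (without F09) to -0.64 for Parva, -0.19 (without F02) to -0.61 for Copb1 and -0.21 (without F03) to -0.47 for Far1. The cause was not tested. With 4 and 5 arrays, probe sets near the floor have sizes that are not resolved.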

Other observations

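The probe sets of 1 gene did not always give the same picture, which bears on which values of a neighbour can be read. Over the 9 arrays the 2 probe sets of Dkk3 had a Pearson r of 0.82, those of Rras2 0.79 and those of Parva 0.75. The 2 of Mical2 had 0.29 and the 2 of Tead1 -0.31, of which the dimmer read at most 2.87 on every array. For Far1, 4 of the 5 probe sets had r between 0.60 and 0.89 with each other, while 1435315_s_at had -0.21 to 0.29 with them. These are descriptions over 9 arrays that share 1 normalization.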
